A study of Rattus norvegicus with 6 samples.

Results

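The mitochondrial ribosomal protein genes comprised 73 genes of the 12603 with their own symbol on the array, namely every gene whose symbol begins with Mrpl or Mrps followed by a digit. Of these, 46 carried an Mrpl symbol and 27 an Mrps symbol. Mrps30 and Mrps18a are components of the large subunit despite their symbols, so that 48 genes belonged to the large subunit and 25 to the small subunit. They were read by 95 probesets, with 1 probeset for 56 genes, 2 for 13, 3 for 3 and 4 for 1, and none was removed by a filter. mRNA was measured on Affymetrix rat arrays in the INS-1 line, which derives from a rat insulinoma and serves as a model of the insulin-secreting β-cell. All cells carried the Insulin 2 C96Y-GFP transgene, a misfolding mutant proinsulin fused to green fluorescent protein, which is switched on by doxycycline (Dox) in a single clone. Each of 2 independent experiments gave 1 array of untreated cells, 1 of cells under Dox for 48 h (4 μg/ml in the sample labels, a lower concentration in the study's methods) and 1 of cells that received Dox and 5 μM 4μ8c together, so that every group had 2 arrays. The compound 4μ8c blocks the RNase of IRE1, the ER stress sensor that splices the XBP1 mRNA. No array held Dox-treated cells without the transgene, so what the drug does and what the mutant proinsulin does cannot be told apart here. Doxycycline belongs to the tetracyclines, antibiotics that are known to act on bacterial and mitochondrial ribosomes.

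Mitochondrial ribosomes translate the few proteins encoded by mitochondrial DNA, all of them subunits of the respiratory chain and ATP synthase. Their RNAs come from mitochondrial DNA, whereas every one of their proteins is encoded in the nucleus, made on cytosolic ribosomes and imported. The small subunit binds the mRNA and holds the decoding centre, and the large subunit forms the peptide bond and passes the new chain through its exit tunnel to the inner membrane. In β-cells the ATP made by the respiratory chain couples glucose metabolism to the closure of potassium channels and so to insulin secretion. The comparisons address whether the mRNAs of this complex move when misfolded proinsulin accumulates in the ER, and whether inhibition of IRE1 alters them.

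The deposited values are log2 signals centred per probeset, so they give differences between arrays and no level of a gene, and β-cell identity could not be judged from marker levels. In experiment 1 the median over its 3 arrays was 0 for 100% of probesets. In experiment 2 this was so for 0.836%, and centring within that experiment was only inferred from the values. Of the ER stress genes used as a check, both rose with Dox and 1 fell when 4μ8c was added. Trib3, an inducible pseudokinase of the stress response, was 2.88 higher on the log2 scale with Dox than in untreated cells and differed by -0.085 when 4μ8c was added (0.040 and -0.21 in the experiments; limma adjusted p = 0.000161 and 0.761). Dnajb9, an ER co-chaperone, was 1.25 higher with Dox and fell by 1.05 when 4μ8c was added (limma adjusted p = 0.0024 and 0.0129). With the Dox+4μ8c array of experiment 1 or 2 left out the second difference was -1.21 or -0.88. Too few arrays remained in those fits to judge the call. All 7 of the β-cell markers considered (Ins1, Ins2, Iapp, Pdx1, Nkx6-1, Mafa and Slc2a2) were on the array. With Dox 2 of the 7 were called lower, against 2.01% of all genes. They were Iapp at -0.25 and Mafa, a β-cell transcription factor, at -0.56 (limma adjusted p = 0.0408 and 0.00899). When 4μ8c was added to Dox all 7 were higher in both experiments, against 19.0% of all genes. Of the 7, 1 was called higher, against 0.175% of all genes, namely Mafa at 0.62 (limma adjusted p = 0.0189). Of 7 markers of other islet cells, 4 were measured. With Dox 1 of them was called lower, against 2.01% of all genes. When 4μ8c was added 1 was called higher, against 0.175%. Both calls were of the glucagon gene Gcg, which fell by 2.22 with Dox and rose by 0.86 when 4μ8c was added (limma adjusted p = 0.000721 and 0.0210). The other markers did not follow it. With Dox, in experiments 1 and 2, Irx2 differed by 0.00 and 0.29, Ppy by 0.10 and 0.15, and Ttr by 0.00 and -0.056. The part of these shifts in the results was not tested. The Dox array of experiment 2 stood apart from the rest, with an SD over all probesets of 0.176 against 0.0502 to 0.118, and with a 5′ minus 3′ signal of the poly-A spike-ins that was 0.652 lower than in the untreated array of its experiment (-0.262 to 0.103 in the other treated arrays). In experiment 1, 25.5% of all probesets held the same value on all 3 arrays, against 0.0039% in experiment 2. This was so for 14 of the 95 probesets here (14.7%), so that Mrpl13, Mrpl30, Mrpl39, Mrpl55, Mrpl58 and Mrps35 showed a difference of exactly 0 in that experiment for every comparison. The part of such ties in the small differences of experiment 1 was not tested beyond a fit without these probesets.

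With Dox, the mRNAs of the mitochondrial ribosome stayed close to their untreated values. Mrps18b rose, to 1.29 fold of untreated, and no other member passed the test in either direction. The 73 differences ran from -0.14 (Mrpl14) to 0.37 (Mrps18b), with 38 above 0 and 35 below, a median of 0.0037 and quartiles of -0.030 and 0.064. By limma with the experiment as a term, 1 of 73 was called higher and 0 lower at an adjusted p under 0.05, where 4.42% of all 12603 genes were called higher and 2.01% lower. At an unadjusted p under 0.05, 8 members were higher (11.0%, against 11.2% of all genes) and 3 lower (4.11%, against 8.44%), and in the fit without the experiment term 9 were higher and 5 lower at that p, with none called. In bulk RNA, fewer cells with a transcript and less of it per cell cannot be told apart.

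**Figure D1:**
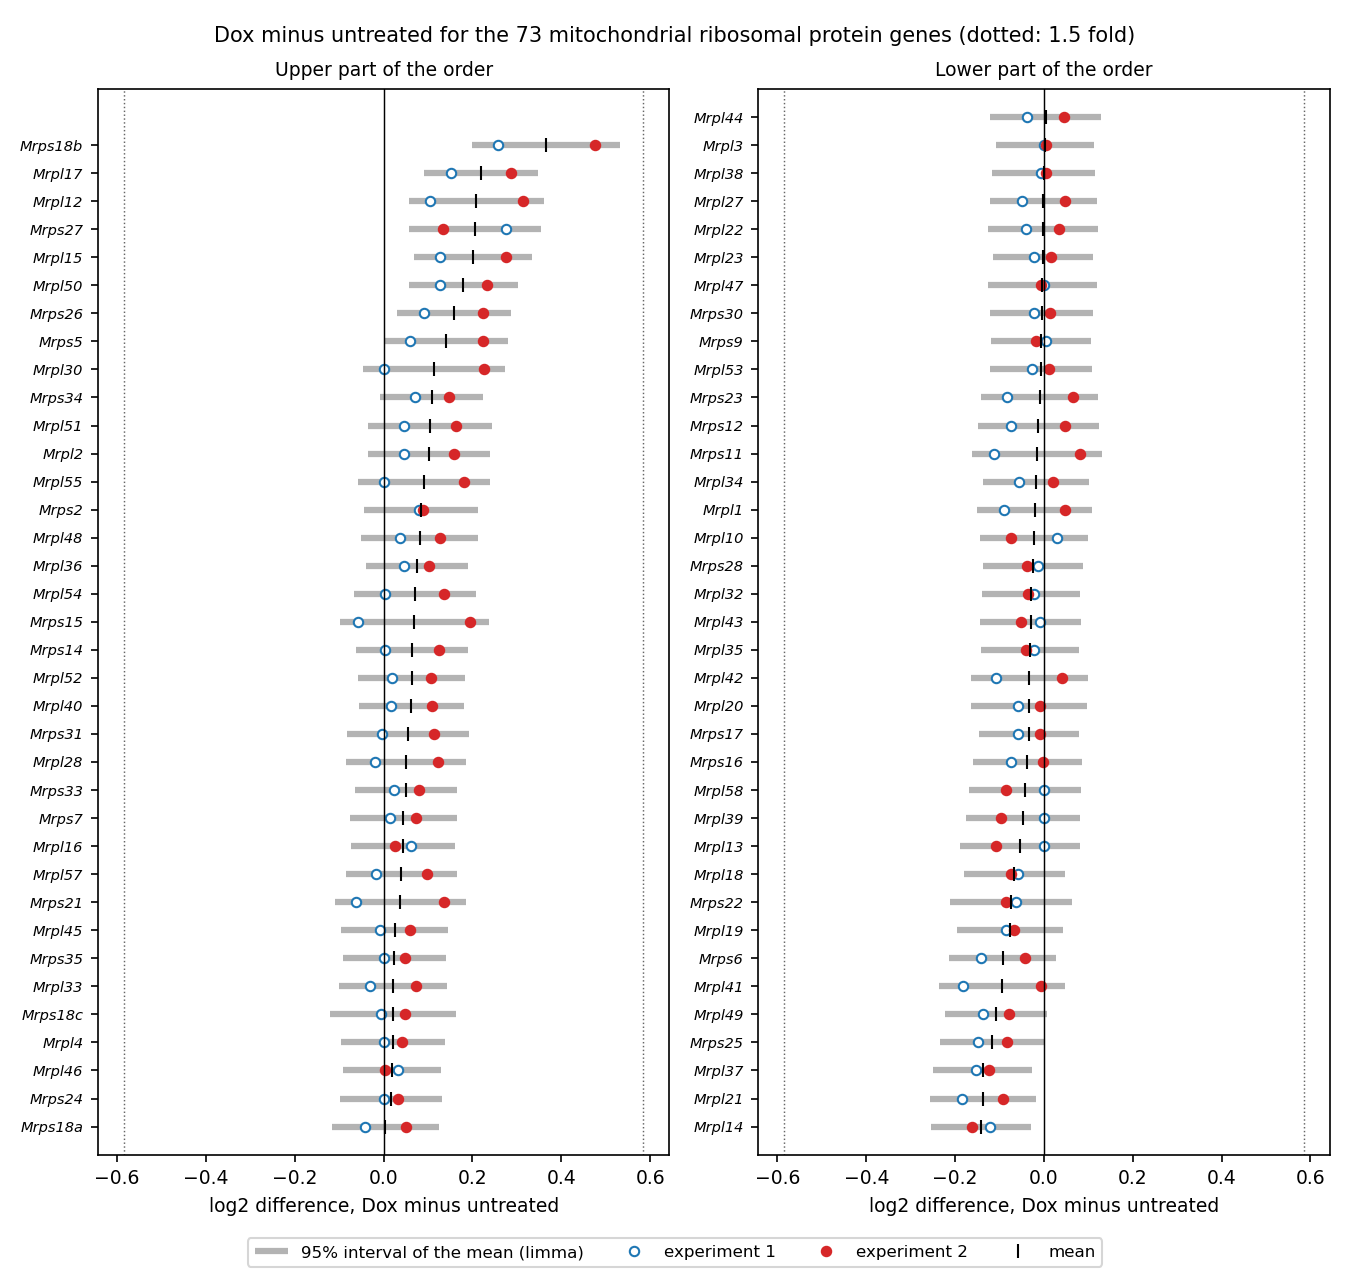
Log2 difference between Dox and untreated cells for all 73 genes, ordered by the mean of both experiments (vertical tick), with experiment 1 as open circles, experiment 2 as filled circles and the 95% interval of the mean from limma as grey bars. The means run from -0.14 to 0.37, and every interval lies within the dotted lines at 1.5 fold in either direction.

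The 2 experiments gave similar orders of the genes and slightly different centres. The median difference was -0.0069 in experiment 1 and 0.047 in experiment 2, where the medians over all genes were 0 and 0.030. In both experiments 22 members were higher (30.1%, against 26.6% of all genes) and 17 were lower (23.3%, against 24.8%). A gene with a difference of exactly 0 in experiment 1 counts in neither direction. This held for 10 of the 73 members and 3178 of all 12603 genes, so these shares are not on an equal footing. Across the 73 genes, the differences of the experiments, which share no array, correlated with Pearson's r = 0.683 and Spearman's rho = 0.587, against 0.632 and 0.464 across all genes. Genes on the same arrays share their library and are not independent replicates. The spread was narrower than on the array as a whole, with an SD over genes of 0.091 for the members and 0.167 for all genes. All 73 intervals (95%, from limma) excluded a change of 1.5 fold or more in either direction, as did 97.0% of all genes, and the widest reached 1.45 fold, for Mrps18b.

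**Figure D2:**
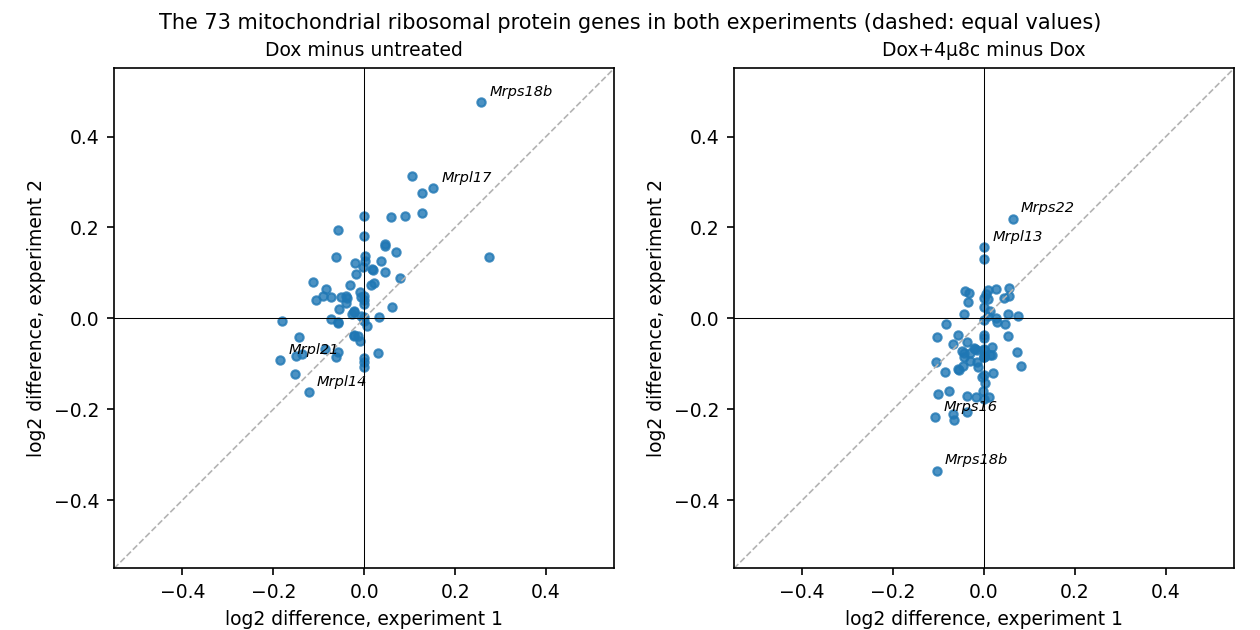
Log2 difference in experiment 1 (x axis) against experiment 2 (y axis) for each of the 73 genes, for Dox minus untreated (left) and Dox+4μ8c minus Dox (right). On the left most points lie near the line of equal values or above it and Mrps18b is the highest at 0.26 and 0.48, whereas on the right the points spread more along the y axis than along the x axis.

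Mrps18b, a small-subunit protein related to bacterial S18, moved most. Its log2 values in experiments 1 and 2 were -0.15 and -0.078 in untreated cells, 0.10 and 0.40 with Dox, and 0.00 and 0.062 with Dox+4μ8c. Within each experiment untreated cells were lowest and Dox cells highest. The share of all genes with this order was not counted. Since values of experiment 1 are centred over its arrays, the 0.00 in experiment 1 follows from the centring. The difference between Dox and untreated cells was 0.37 ± 0.069 (SE, n = 2; 0.26 in experiment 1 and 0.48 in experiment 2; limma adjusted p = 0.0321). It was carried by 1 probeset, and RefSeq lists a pseudogene of Mrps18b whose transcripts, if any, could share its probes. The call did not pass without the experiment term (adjusted p = 0.0953, limma), in a fit per probeset (0.0685) or with either untreated array, either Dox+4μ8c array or the Dox array of experiment 2 left out, where the difference lay between 0.25 and 0.42 and the adjusted p between 0.07 and 0.21 (limma). Adding 4μ8c to Dox gave -0.22 ± 0.069 (-0.10 and -0.33), which did not pass (limma adjusted p = 0.267). With the Dox array of experiment 1 left out this difference was -0.33, and with that of experiment 2 left out it was -0.11.

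The 250 bases before the annotated start of Mrps18b (GRCr8, chr20:2842756-2843005, + strand), of Mrpl17 (chr1:169575700-169575949, - strand) and of Mrpl37 (chr5:127074968-127075217, - strand) are shown as RefSeq gives them, 5′ to 3′, for the members with the most positive, the next most positive and the most negative difference with Dox among the members with exactly 1 promoter window in RefSeq, since Mrpl14 had 2 and Mrpl21 had 0. Capitals mark matches, on either strand, to the motifs spelled out further on.
Mrps18b: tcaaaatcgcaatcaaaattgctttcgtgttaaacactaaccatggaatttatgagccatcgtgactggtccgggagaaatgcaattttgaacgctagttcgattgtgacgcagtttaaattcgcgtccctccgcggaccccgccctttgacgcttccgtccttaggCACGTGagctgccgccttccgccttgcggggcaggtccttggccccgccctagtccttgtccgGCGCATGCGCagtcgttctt
Mrpl17: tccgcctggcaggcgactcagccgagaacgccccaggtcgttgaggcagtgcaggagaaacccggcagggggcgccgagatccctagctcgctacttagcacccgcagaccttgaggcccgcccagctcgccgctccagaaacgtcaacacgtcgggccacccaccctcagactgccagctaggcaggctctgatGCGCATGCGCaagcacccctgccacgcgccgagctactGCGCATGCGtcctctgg
Mrpl37: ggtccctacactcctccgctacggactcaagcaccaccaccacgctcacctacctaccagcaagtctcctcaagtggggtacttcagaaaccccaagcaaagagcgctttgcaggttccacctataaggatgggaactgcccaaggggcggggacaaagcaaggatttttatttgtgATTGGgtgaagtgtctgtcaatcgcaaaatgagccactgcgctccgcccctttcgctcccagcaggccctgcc
In Mrps18b the capitals are an E-box from base -83 to -78 before the start, the sequence bound by Myc and related factors, and a pair of overlapping matches to NRF1, a regulator of nuclear genes for mitochondria, from -20 to -11. Mrpl17 held NRF1 matches from -55 to -46, where a pair overlap, and from -17 to -9. Mrpl37 held a match to NF-Y, a general promoter factor, from -73 to -69, and the matches to an ETS motif in Mrps18b and to YY1 in Mrpl37 lay after this stretch.

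The members next to Mrps18b in size of positive difference did not pass the test. Mrpl17, a large-subunit protein with a bacterial counterpart, read -0.050 and -0.061 in untreated cells, 0.10 and 0.23 with Dox, and 0.00 and 0.061 with Dox+4μ8c. Mrpl12, which forms the stalk of the large subunit that recruits translation factors and has been reported to bind the mitochondrial RNA polymerase, read -0.083 and -0.070, then 0.022 and 0.24, then 0.0044 and 0.070. For both genes the order of the groups was the same as for Mrps18b, with untreated lowest and Dox highest in each experiment. These genes were picked for a large positive difference with Dox in both experiments. That Dox lies above untreated therefore follows from the choice, which also favours Dox as the highest group. Mrps27, a pentatricopeptide repeat protein of the small subunit, read -0.22 and -0.011 untreated, 0.055 and 0.12 with Dox, and 0.00 and 0.0093 with both agents. The mean differences were 0.22 ± 0.053 for Mrpl17, 0.21 ± 0.063 for Mrpl12 and 0.20 ± 0.061 for Mrps27 (SE, limma adjusted p = 0.0682, 0.123 and 0.122). Mrpl15, a conserved large-subunit protein, differed by 0.20 ± 0.054 (limma adjusted p = 0.0938). With the Dox array of experiment 1 left out, the differences of Mrpl12, Mrpl15 and Mrpl17 were 0.30, 0.25 and 0.27.

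Among the members below their untreated values were Mrpl14, a protein at the interface of the subunits, Mrpl21, Mrpl37 and Mrps25. Mrpl14 read 0.12 and 0.18 in untreated cells, 0.00 and 0.016 with Dox, and -0.068 and -0.042 with Dox+4μ8c. Mrps25, a mitochondria-specific protein of the small subunit, read 0.15 and 0.11, then 0.00 and 0.026, then 0.00 and -0.059. In both genes the untreated arrays were the highest in each experiment, where untreated above Dox follows from how these genes were picked. The differences with Dox were -0.14 ± 0.046 for Mrpl14, -0.14 ± 0.049 for Mrpl21, -0.14 ± 0.046 for Mrpl37 and -0.12 ± 0.049 for Mrps25, none past the test (limma adjusted p = 0.152, 0.187, 0.161 and 0.263).

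**Figure D3:**
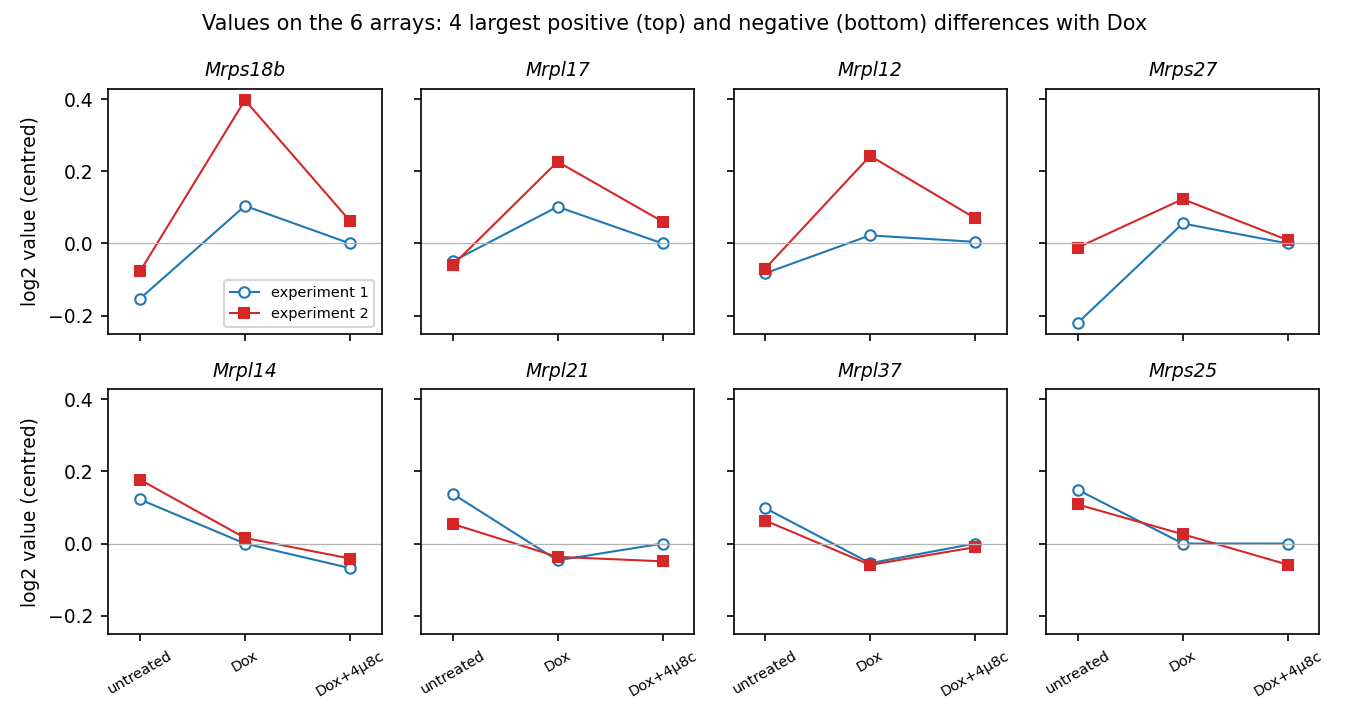
Centred log2 values on the 6 arrays for the members with the 4 largest positive (top) and the 4 largest negative (bottom) differences with Dox among those with the same sign in both experiments, with a line for each experiment. Within each experiment Dox is the highest point in the top panels, reaching 0.40 for Mrps18b, and untreated is the highest point in the bottom panels. The order of Dox and untreated follows from the choice of genes.

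Some members differed between experiments or between their own probesets. Mrps15, which binds the small-subunit rRNA, differed by -0.057 in experiment 1 and 0.20 in experiment 2. Mrpl30, in the large subunit, differed by 0.00 and 0.23, with its experiment 1 values tied. Their means were 0.069 ± 0.069 and 0.11 ± 0.066 (SE, n = 2). Of the 17 members with more than 1 probeset, Mrpl37 disagreed most, since its 3 probesets gave mean differences from -0.28 to 0.042. The probeset at 0.042 was tied over experiment 1, and with the tied probesets left out Mrpl37 was called lower (-0.23, limma adjusted p = 0.0360). The 2 probesets of Mrps26 gave 0.032 and 0.28, and those of Mrps15 gave -0.027 and 0.17. RefSeq names 36 pseudogenes after 21 of the members, with up to 9 for 1 gene, and whether the probesets read them was not tested.

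Sorting the members by subunit or by ancestry showed no group that moved as a whole with Dox. In the large subunit 0 of 48 genes were called (4 higher and 3 lower at an unadjusted p under 0.05 by limma, and none called without the experiment term), with a median of -0.00094 and 23 above 0. In the small subunit 1 of 25 was called higher, where 4.42% of all genes were, with a median of 0.024 and 15 above 0. The 43 members with a bacterial counterpart had a median of -0.0013 and the 30 without one a median of 0.021, and the single call, Mrps18b, was in the first group. Mrps12, the decoding-centre protein of the small subunit, differed by -0.013 ± 0.056 (limma adjusted p = 0.918), with -0.073 in experiment 1 and 0.047 in experiment 2.

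When 4μ8c was added to Dox, 50 of the 73 members lay below their Dox value (68.5%, against 57.9% of all genes), and none passed the test. The median difference was -0.043, against -0.014 over all genes, and the range was -0.22 (Mrps18b) to 0.14 (Mrps22). By limma 0 members were called higher and 0 lower, where 0.175% of all genes were called higher and 1.61% lower. At an unadjusted p under 0.05, 1 was higher (1.37%, against 2.79% of all genes) and 4 were lower (5.48%, against 8.44%), and without the experiment term 1 was higher and 3 were lower with none called. In both experiments 32 members were lower (43.8%, against 26.9% of all genes) and 13 higher (17.8%, against 19.0%). Here 13 of the 73 members and 3509 of all 12603 genes were at exactly 0 in experiment 1. They count in neither direction, so these shares are not on an equal footing. The medians were 0.00 in experiment 1 and -0.069 in experiment 2. Without the Dox array of experiment 2 the median was -0.0065 (0.00022 over all genes), without the Dox+4μ8c array of experiment 2 it was -0.021 (-0.0083), and without the Dox array of experiment 1 it was -0.070 (-0.034), so its size depended on single arrays. That the Dox array of experiment 2 had the widest SD and the lowest 5′ spike-in signal is given above, and the part of these in the shift was not tested.

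Below their Dox value by the most after Mrps18b were 3 other small-subunit proteins with bacterial counterparts, Mrps16, Mrps12 and Mrps21. Mrps16, whose mutation is known to cause a combined respiratory chain deficiency, read 0.074 and 0.084 in untreated cells, 0.00 and 0.081 with Dox, and -0.11 and -0.14 with Dox+4μ8c. The Dox+4μ8c arrays were the lowest for Mrps16 in both experiments, and the difference from Dox was -0.16 ± 0.051. Mrps12 read 0.073 and 0.051, then 0.00 and 0.098, then -0.065 and -0.13, and differed by -0.14 ± 0.056. Mrps21 differed by -0.14 ± 0.061. None of the 3 passed the test (limma adjusted p = 0.262, 0.407 and 0.480).

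In the other direction, among members with the same sign in both experiments, Mrps22, a mitochondria-specific protein of the small subunit, differed most. It read 0.00 and -0.067 untreated, -0.063 and -0.15 with Dox, and 0.00 and 0.067 with Dox+4μ8c. It was lowest with Dox in both experiments, and the difference with 4μ8c was 0.14 ± 0.057 (limma adjusted p = 0.426). Mrpl35, Mrpl37 and Mrps30, all of the large subunit, followed among these at 0.061, 0.052 and 0.045 and did not pass either (limma adjusted p = 0.664, 0.712 and 0.759). Mrpl13 and Mrpl39, tied over experiment 1 and so without a shared sign, lay above these at 0.078 and 0.065. By subunit, 32 of 48 large-subunit members and 18 of 25 small-subunit members were below their Dox value, with medians of -0.034 and -0.056. All 73 intervals again lay within 1.5 fold, the widest bound being 1.31 fold.

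Against untreated cells, cells given Dox and 4μ8c together showed no called member, although 1.17% of all genes were called higher and 1.13% lower by limma. At an unadjusted p under 0.05, 1 member was higher (1.37%, against 6.27% of all genes) and 8 were lower (11.0%, against 9.15%). Without the experiment term 3 were higher and 8 lower at that p, and none was called, as was so for all genes in that fit. The median was 0.0015, with 37 above 0 and 36 below. In both experiments 17 were higher (23.3%, against 23.9% of all genes) and 28 lower (38.4%, against 28.8%). With 14 of the 73 members and 3439 of all 12603 genes at exactly 0 in experiment 1, these shares are not on an equal footing. The most negative differences were those of Mrpl14 (-0.20 ± 0.046), Mrps16 (-0.20 ± 0.051), Mrpl49, a mitochondria-specific large-subunit protein (-0.17 ± 0.047), and Mrps25 (-0.16 ± 0.049), with limma adjusted p = 0.0923, 0.119, 0.142 and 0.183. The most positive were those of Mrpl15 (0.16 ± 0.054), Mrps18b (0.15 ± 0.069), Mrps27 (0.12 ± 0.061) and Mrps26 (0.11 ± 0.053), with limma adjusted p = 0.234, 0.397, 0.429 and 0.388. The contrast shares its untreated arrays with the first comparison and its Dox+4μ8c arrays with the second. The first and second share the Dox arrays with opposite sign, so a deviation of a Dox array moves a gene in opposite directions in them. Taken from different experiments, which share no array, these comparisons correlated across the members at Pearson's r = -0.258 and -0.243. Across all genes the values were -0.329 and -0.324. All 73 intervals lay within 1.5 fold, and the widest bound was 1.25 fold.

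**Figure D4:**
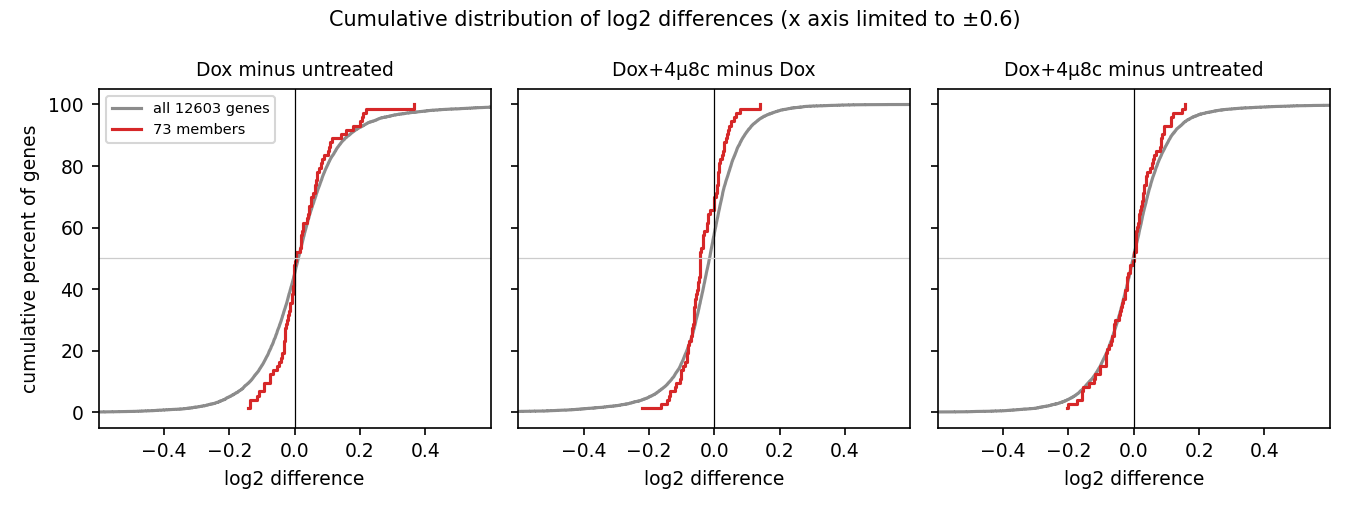
Cumulative percent of genes (y axis) by log2 difference (x axis) for the 73 members in red and all 12603 genes in grey, in the 3 comparisons. With Dox the red curve is the steeper one and crosses 50% at 0.0037, with 4μ8c added to Dox it lies left of the grey curve around the middle, at a median of -0.043 against -0.014, and against untreated cells the curves cross near 0.

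The other genes of mitochondrial translation were given the same fit. Of all genes, 4.42% were called higher and 2.01% lower with Dox. The shares were 0.175% and 1.61% when 4μ8c was added to Dox, and 1.17% and 1.13% between Dox+4μ8c and untreated cells. Of 6 genes listed as subunits with other symbols 0 were called by limma in any comparison, with at most 1 in each direction at an unadjusted p under 0.05. They were Dap3, Ptcd3, Chchd1, Aurkaip1, Gadd45gip1 and Lactb, and whether each is part of the ribosome was not tested. Lactb differed most, by -0.22 with Dox and by 0.20 when 4μ8c was added (limma adjusted p = 0.407 and 0.630). Among these Gadd45gip1, a large-subunit protein at the tunnel exit, differed by 0.16 with Dox and by -0.17 when 4μ8c was added (limma adjusted p = 0.150 and 0.261), and Ptcd3, in the small subunit, differed by 0.18 between Dox+4μ8c and untreated cells (adjusted p = 0.139). Of 15 translation factors 1 rose with Dox and 0 fell. It was Tsfm, the nucleotide exchange factor for the elongation factor Tufm, at 0.25 ± 0.052 (0.31 and 0.18 in the experiments; limma adjusted p = 0.0477). This call did not pass without the experiment term or with each array centred on its median (limma adjusted p = 0.0576 and 0.0621). With single arrays left out the difference of Tsfm was 0.20 to 0.30, and too few arrays remained to judge the call.

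Of 26 genes of mitoribosome assembly and rRNA modification 1 rose with Dox and 0 fell, and 22 lay above 0 (84.6%, against 54.8% of all genes), with a median of 0.045. The median was 0.00078 in experiment 1, where 8 genes were at exactly 0, and 0.086 in experiment 2. In both experiments 13 were higher (50%, against 26.6% of all genes). Ngrn, needed for the stability of the large-subunit rRNA, read -0.30 and -0.22 in untreated cells, 0.00 and 0.076 with Dox, and 0.10 and 0.099 with Dox+4μ8c. It was lowest in untreated cells in both experiments, and differed by 0.30 ± 0.049 with Dox and by 0.36 ± 0.049 with both agents (limma adjusted p = 0.0219 and 0.0254). With single arrays left out the differences of Ngrn were 0.27 to 0.32 and 0.32 to 0.40. Too few arrays remained in those fits to judge the calls. Of 13 mitochondrial aminoacyl-tRNA synthetases 0 rose and 1 fell. Fars2, which charges the mitochondrial phenylalanine tRNA, differed by -0.31 ± 0.046 with Dox and by -0.28 ± 0.046 with both agents (limma adjusted p = 0.0156 and 0.0442). With single arrays left out the differences of Fars2 were -0.33 to -0.29 and -0.29 to -0.27, and again too few arrays remained to judge the calls. Without the experiment term the calls of Ngrn and Fars2 with both agents did not pass (limma adjusted p = 0.0769 and 0.0990). In that fit 0 of all genes were called for this comparison, so the failure is not particular to Ngrn or Fars2.

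Of 15 genes of mitochondrial transcription and its nuclear regulators 2 rose with Dox and 0 fell. Myc, a transcription factor known for driving ribosome production, was higher by 0.61 ± 0.051 with Dox and by 0.66 ± 0.051 with both agents (limma adjusted p = 0.00265 and 0.00609). Pprc1, a coactivator related to PGC-1α, was higher by 0.31 ± 0.052 with Dox (limma adjusted p = 0.0213). Without the experiment term none of these calls passed (limma adjusted p = 0.0775 and 0.130 for Myc, 0.0833 for Pprc1). In that fit 0 of all genes were called between Dox+4μ8c and untreated cells, so the failure with both agents is not particular to Myc. With single arrays left out Pprc1 differed by 0.26 to 0.36 with Dox, and Myc by 0.62 to 0.71 with both agents. Too few arrays remained in those fits to judge the calls. Of 42 cytosolic ribosomal protein genes 0 were called with Dox (limma, with 4 higher and 0 lower at an unadjusted p under 0.05). Of these 41 lay above 0 (97.6%, against 54.8% of all genes), 31 of them in both experiments (73.8%, against 26.6%), with a median of 0.061 against 0.011 for all genes and 0.0037 for the mitochondrial ribosomal proteins, and Rpl12 differed by 0.18 (adjusted p = 0.0809). Adding 4μ8c to Dox called no gene in any of these lists by limma, with at most 1 in each direction per list at an unadjusted p under 0.05, and their medians lay between -0.040 and 0.032.

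**Figure D5:**
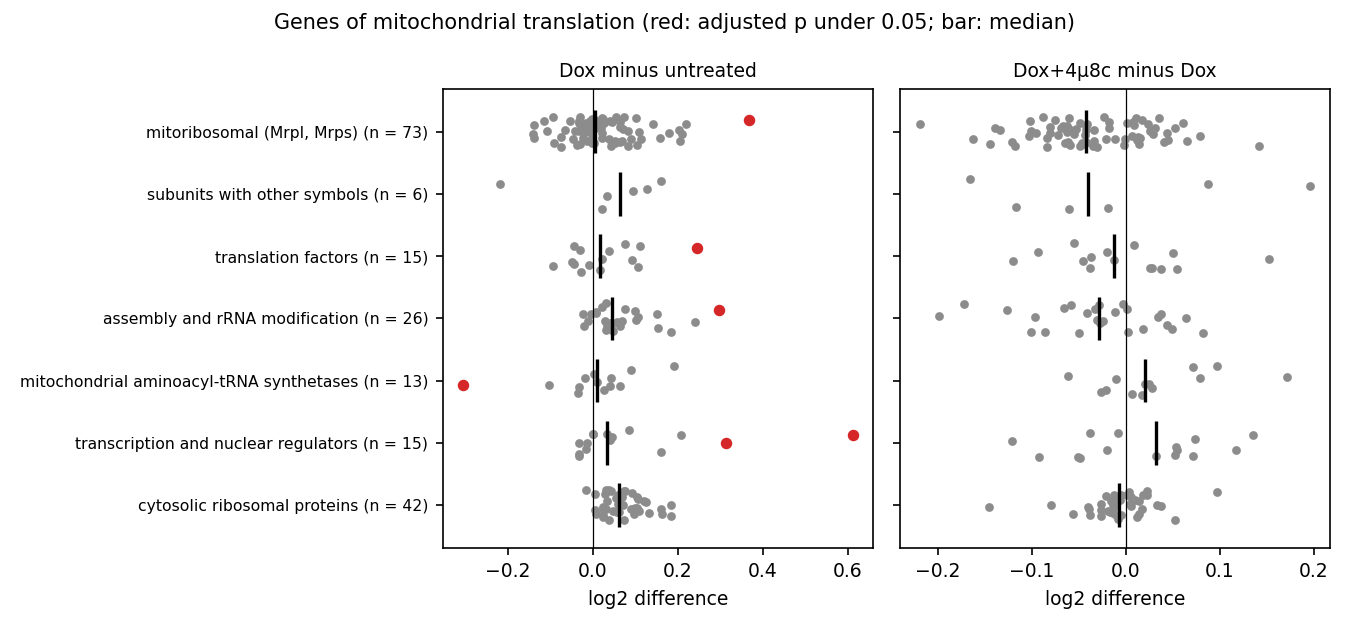
Log2 difference of each gene for the mitochondrial ribosomal proteins and related lists, with Dox minus untreated on the left and Dox+4μ8c minus Dox on the right (x axes, scales differ). Genes with an adjusted p under 0.05 are red and the bar is the median. On the left 1 of 73 members is red, at 0.37, and on the right no gene of any list is.

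Promoter windows from 250 bases before to 50 bases after the start were given by RefSeq (GRCr8) for 59 of the 73 members. Motifs were searched on both strands, and the shares are of members, of 10371 other genes on the array and of all 33469 windows. The ETS motif CCGGAAG was found in 20 members (33.9%, against 16.7% and 8.75%), the NRF1 motif GCGCNTGCG in 12 (20.3%, against 12.6% and 5.75%), and the YY1 motif AAGATGGCG in 8 (13.6%, against 3.52% and 1.73%). These are motifs known from promoters of nuclear genes for mitochondrial proteins. The NF-Y motif CCAAT was in 27 (45.8%, against 38.8% and 37.5%) and the E-box CACGTG in 6 (10.2%, against 9.73% and 6.42%). Of motifs tied to the ER stress response, TGATGCAA, bound by ATF4, was in 0 of 59 (0.617% and 0.795% elsewhere), and TGACGTG, bound by XBP1 and ATF6, was in 1, Mrpl49 (1.69%, against 2.53% and 1.81%). The 6 members with an E-box, Mrps18b among them, had means above 0 with Dox, as had 27 of the 53 without one and 54.8% of all genes. The medians of members with and without it were 0.072 and 0.0020. For the 1009 other genes on the array with an E-box neither value was computed, nor was it for other motifs. Whether the difference is particular to the members is therefore not known. In experiment 1 alone, Mrpl4 and Mrpl30 of the 6 differed by 0.00 and Mrps18c by -0.0069, and the others were above 0. The part of Myc in these differences was not tested. The medians with and without the NRF1 motif were 0.032 and 0.0041, and those with and without the ETS motif were 0.029 and -0.0033. In the other direction, the medians with and without the YY1 motif were 0.011 and 0.021, those for NF-Y were 0.0020 and 0.023, and Mrpl49, with the XBP1 motif, stood at -0.11 against a median of 0.020 without it. A match describes the letters of the window, and whether a factor binds there was not measured.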

How the data were processed

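mRNA of INS-1 cells was measured on 6 arrays, from 200 ng of total RNA each. The authors computed log2 values by RMA (per the labels, version not given in the sources used here) and deposited them centred per probeset. The median over the 3 arrays of experiment 1 was 0 for 100% of probesets and that of experiment 2 for 0.836%, so signal levels and signal over background were not computed. Of 25476 probesets, the 17978 with 1 gene symbol were averaged per gene (12603 genes, no filter). Probesets without a symbol (7068), with several (378) and controls (52) were left out. A log2 difference is the mean over both experiments.

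The test across genes was limma 3.58.1 (R 4.3.3; lmFit, eBayes, two-sided) with the group and the experiment (the replicate number of the labels) as terms, 2 residual and 4.25 prior degrees of freedom, and Benjamini-Hochberg adjustment over all genes, at an adjusted p under 0.05. Probesets were called tied when their values differed by less than 1e-09. The test was tried on simulated data. With 2 arrays per group an exact permutation test cannot pass, and the number of arrays limits the precision. Python 3.11.15 with numpy 2.4.6, pandas 2.3.3 and matplotlib 3.10.9 served for tables and figures.

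The study describes independent experiments, and the replicate numbers were taken as these. Deviations from the group means correlated across genes between same-numbered arrays at 0.032, 0.100 and 0.031. Centring within an experiment takes out a shift shared by its arrays, so these values cannot show whether the numbers mark paired experiments. The members, gene lists, motifs and tests were chosen with earlier results of these data known. Members named in the text were those past the test, the 4 most positive and 4 most negative differences per comparison with the same sign in both experiments, the 3 with the largest gap between experiments, the 3 with the largest range between probesets, and Mrpl12, Mrps12 and Mrps36, of which Mrps36 was not analysed here. Of related lists, the genes past the test or else those with the smallest p were named. The tied genes and those that passed under another setting were named after their values were seen. The inhibitor without Dox was not analysed here.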

Additional observations from a re-analysis of the deposited data

How the results depend on the processing

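The alternatives were no experiment term, each array centred on its median, robust moderation, a fit per probeset and each array left out in turn. In another, probesets with an _s_at, _x_at or _a_at suffix were left out. Of the members this removed 3 _a_at probesets, among them the only probeset of Mrpl17, so that 72 members remained. Chosen after seeing the data was a fit with probesets tied over experiment 1 left out. Members called higher with Dox numbered 0 without the replicate block, 0 in the fit per probeset and 0 to 4 with an array left out. Members called lower with Dox numbered 1 without tied probesets, and those called lower when 4μ8c was added 0 to 1 with an array left out. The median between Dox+4μ8c and untreated was -0.0114 without tied probesets and -0.028 to 0.0095 with an array left out. Named differences that changed sign with an array left out were those of Mrps15 with Dox (-0.0405 to 0.1791), Mrps12 with Dox (-0.083 to 0.0568) and Trib3 when 4μ8c was added (-0.244 to 0.0745). The causes were not tested beyond the fewer arrays. A fit with an array left out has a single array in a group, so its calls cannot be judged. The median with Dox was -0.0066 with each array centred, where that of all genes was 0.00083. Of 262 values of named genes under the alternatives that kept all arrays, 247 kept their direction and side of the threshold, 14 no longer passed and 1 newly passed. With an array left out, 217 of 264 did so, 37 no longer passed, 5 newly passed and 5 changed sign. Over all genes the replicate block moved the calls from 303 higher and 137 lower to 557 and 253 with Dox, and from 0 to 148 higher and 142 lower between Dox+4μ8c and untreated. Signal over background was not computed from centred values, so weakly expressed members are not marked.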
